A study of Homo sapiens with 688 samples.

Results

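The 14 libraries described here, of 688 in the series, came from BT20 cells exposed to bortezomib (Velcade) at 0.044 µM for 6 h. They were chosen by their labels and consist of 12 wells of a 96-well plate read by PLATE-Seq and 2 pools read by the Illumina TruSeq protocol. BT20 is an epithelial line from a triple-negative breast carcinoma. The vehicle group holds 12 wells and 2 pools of the same cells given DMSO on the same plate, and no genetic change or further agent was given to either group. Each drug was used at the concentration that left 80% of the cells viable after 48 h. PLATE-Seq adds a well barcode to the 3′ end of each mRNA during reverse transcription and sequences all wells of a plate together at low depth, and the TruSeq pools were made from the remaining lysate of the same wells, 6 wells to a pool. The pools are therefore a second assay of the same cultures. The wells shared a plate, so that PLATE-Seq p-values measure the spread between wells of 1 experiment. TruSeq p-values measure the spread between pools of that experiment. Each pool already combines 6 wells, so the spread between single wells does not enter them directly. The same plate held 72 wells of 6 other drugs (mitoxantrone, idarubicin, crizotinib, albendazole, aprepitant and gemcitabine, 12 wells each), which serve as a further comparison, as do 2 bortezomib libraries of the U87 glioblastoma line, each made from the joined lysates of 2 culture wells.

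The proteasome is the barrel-shaped protease that degrades proteins tagged with ubiquitin. Bortezomib is a boronic acid that binds the chymotrypsin-like site of the 20S core, carried by the subunit PSMB5, and it is used against multiple myeloma. When the proteasome is blocked, damaged and short-lived proteins accumulate, and cells are known to answer through heat shock factors, through NRF1, which drives proteasome subunit genes, through NRF2, which drives antioxidant genes, and through ATF4, the effector of the integrated stress response.

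Libraries of both groups were of similar depth. The bortezomib wells held 829529 to 1131887 counts and the DMSO wells 367848 to 1071312 (two-sided permutation test, p = 0.123), with 1 DMSO well under 0.5 times the median of the plate. The TruSeq pools held 27802204 and 28381423 counts for bortezomib and 26719454 and 25356838 for DMSO. The 6 most abundant symbols took 42.6% of the counts in bortezomib wells and 39.2% in DMSO wells (permutation test, two-sided, p = 0.000360), and leaving these symbols out gave 310 called genes in the comparison below in place of 312. Summed over 12 markers of an epithelial breast line, levels were 6719 to 9264 CPM (the read count relative to the library size, scaled by TMM factors) in bortezomib wells and 6786 to 8389 in DMSO wells. EPCAM, KRT8 and KRT18 were abundant in both groups, while KRT19 had no reads in any bortezomib well and 0.260 CPM on average in DMSO wells, against 409 and 443 CPM on average in the TruSeq pools of bortezomib and DMSO. The 8 fibroblast markers summed to 6.06 to 45.9 CPM and 10.5 to 36.9 CPM in the wells of bortezomib and DMSO, with COL1A2, DCN and LUM at 0, and the 7 blood and endothelial markers to 12.7 to 21.1 and 10.8 to 50.6 CPM, with CD3E and LYZ at 0. The 8 glial and prostate markers summed to at most 21.3 CPM in either group of wells. The markers of the labelled tissue were thus present and those of other lines were low. In bulk samples, fewer cells of a type and less RNA per cell cannot be told apart.

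The genes that rose with bortezomib were led by chaperones of the heat shock response, by ATF4 targets and by antioxidant genes. HSPA1B and DDIT4 were 14.9-fold and 11.1-fold higher than in DMSO wells, and HES1 and EFNA1 were 3.89-fold and 3.69-fold lower. In PLATE-Seq, 6330 symbols passed the filter on low counts, and 312 of them (4.93%) were called at an adjusted p under 0.05 by edgeR's quasi-likelihood test with Benjamini-Hochberg adjustment. Of these, 186 rose (2.94%) and 126 fell (1.99%). A change of at least 1 on the log2 scale was seen in 59 of the rising genes (0.932% of those tested) and 35 of the falling genes (0.553%). In TruSeq, 14970 symbols were tested and 6114 (40.8%) were called, 3185 (21.3%) higher and 2929 (19.6%) lower, of which 324 (2.16%) and 238 (1.59%) changed by at least 1 on the log2 scale. TruSeq thus called far more small changes, and a call in it is read below against that background. It differed from PLATE-Seq in depth, in the pooling of wells and in the fit, and which of these raised the number of calls was not tested.

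HSPA1B, DDIT4, HES1 and EFNA1 were taken as markers of the exposure with their response in these data already known, and are given first. HSPA1B encodes the inducible HSP70 chaperone, which refolds damaged proteins, and lies at chr6:31795515-31798031 (hg19). Its level was 477 CPM in the lowest bortezomib well, 742 at the median and 858 in the highest, against 25.8, 41.4 and 81.1 in DMSO wells, a log2 fold change of 3.90 ± 0.13 (SE, n = 12 wells a group, edgeR adjusted p = 1.67e-33). The groups did not overlap. The TruSeq pools read 1547 and 1737 CPM with bortezomib and 75.3 and 81.0 CPM with DMSO (log2 fold change 4.39). HSPA1A, a near-identical neighbour, was read at 1.90 and 3.85 CPM with bortezomib and 0.149 and 0.0783 CPM with DMSO in TruSeq, and how reads of this pair were split between the 2 symbols is uncertain. DDIT4, an inhibitor of mTORC1 that is induced by stress (chr10:74033678-74035794), ranged from 57.4 to 150 CPM in bortezomib wells, with a median of 93.3, and from 0.978 to 21.2 CPM in DMSO wells, with a median of 6.50 (log2 fold change 3.47 ± 0.28, edgeR adjusted p = 1.97e-14). Every bortezomib well was above every DMSO well. The pools held 246 and 262 CPM against 25.9 and 30.1 CPM.

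HES1, a transcriptional repressor and the classical target of Notch signalling (chr3:193853937-193856521), fell from 91.0 to 200 CPM in DMSO wells, median 151, to 18.5 to 49.5 CPM in bortezomib wells, median 41.9 (log2 fold change -1.96 ± 0.16, edgeR adjusted p = 3.08e-15). EFNA1, the membrane-bound ligand of EphA receptors (chr1:155100352-155107375), stood at 57.7 to 138 CPM in DMSO wells, median 96.9, and at 13.8 to 39.2 CPM with bortezomib, median 26.7 (log2 fold change -1.88 ± 0.18, edgeR adjusted p = 6.17e-13). Neither gene's groups overlapped. In TruSeq, HES1 was at 15.1 and 14.2 CPM with bortezomib and 38.1 and 35.2 CPM with DMSO, and EFNA1 at 20.2 and 20.9 against 65.2 and 64.7 CPM.

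**Figure D1:**
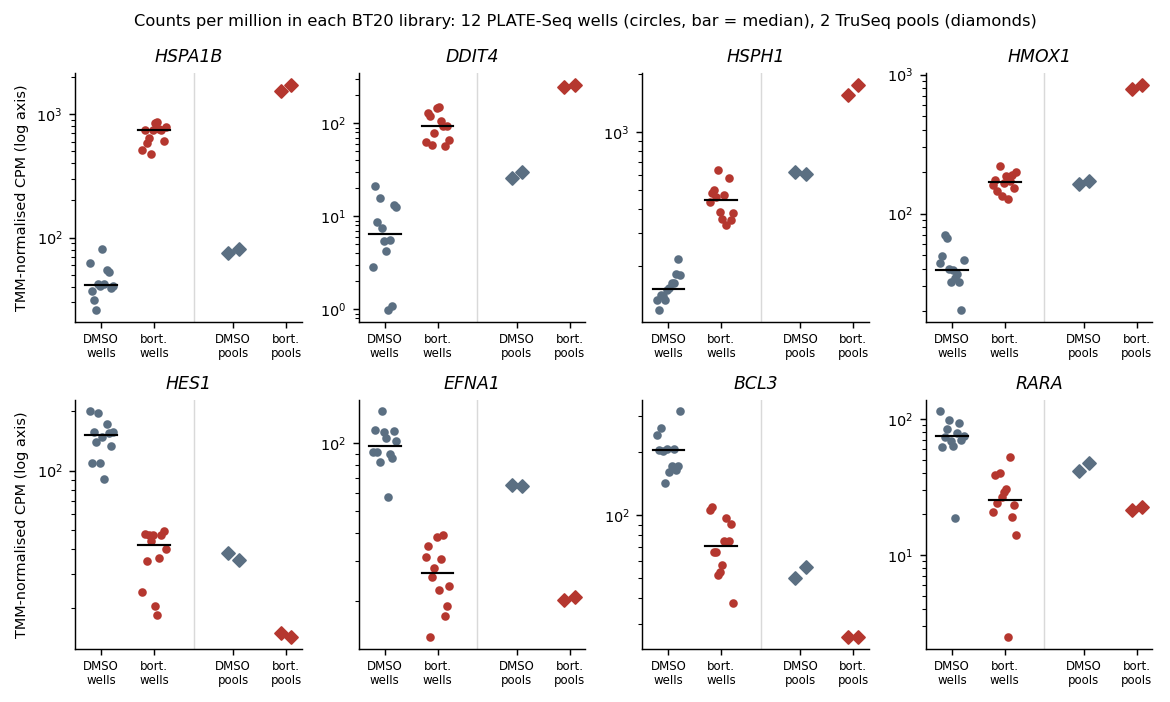
Levels of 8 genes in CPM (log axis) in the 12 DMSO and 12 bortezomib wells (circles, with a bar at the median) and in the 2 TruSeq pools of each group (diamonds). HSPA1B, DDIT4, HSPH1 and HMOX1 lie higher and HES1, EFNA1 and BCL3 lower in every bortezomib well than in any DMSO well, while the wells of RARA overlap.

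Short motifs were searched in the promoters of these genes, because several of the factors named above bind known sequences. The promoters of 6 members that moved are printed below from RefSeq (GRCh38.p14, 250 bases before to 50 bases after the start site, 5′ to 3′ on the strand of the gene), with matched motifs in capitals. HSPA1B and HSPA8 show the core of the heat shock element (GAANNTTC or TTCNNGAA), CHAC1 and HERPUD1 the composite element that ATF4 binds with a C/EBP partner (TGATGNAA), PSMC4 the core of the antioxidant response element (TGACNNNGC), and HES1 a heat shock core in a gene that fell.
HSPA1B, chr6:31827488-31827787, plus strand: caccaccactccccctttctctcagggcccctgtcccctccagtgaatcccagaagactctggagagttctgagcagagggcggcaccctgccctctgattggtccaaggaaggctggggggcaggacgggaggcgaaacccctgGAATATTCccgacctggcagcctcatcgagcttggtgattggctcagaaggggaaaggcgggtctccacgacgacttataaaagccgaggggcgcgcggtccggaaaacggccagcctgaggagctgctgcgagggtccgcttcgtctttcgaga
HSPA8, chr11:123062087-123062386, minus strand: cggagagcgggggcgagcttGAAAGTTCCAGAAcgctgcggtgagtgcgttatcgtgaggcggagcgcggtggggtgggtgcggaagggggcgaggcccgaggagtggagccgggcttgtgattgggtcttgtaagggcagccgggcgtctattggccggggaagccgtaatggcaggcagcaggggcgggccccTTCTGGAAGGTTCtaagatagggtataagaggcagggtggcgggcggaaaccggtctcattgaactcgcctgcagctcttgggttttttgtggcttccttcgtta
CHAC1, chr15:40953221-40953520, plus strand: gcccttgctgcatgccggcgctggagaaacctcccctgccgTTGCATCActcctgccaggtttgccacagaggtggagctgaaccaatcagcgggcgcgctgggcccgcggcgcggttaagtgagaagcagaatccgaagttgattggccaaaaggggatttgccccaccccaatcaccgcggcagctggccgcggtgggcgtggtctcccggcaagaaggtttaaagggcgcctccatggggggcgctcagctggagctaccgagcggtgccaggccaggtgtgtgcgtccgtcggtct
HERPUD1, chr16:56931892-56932191, plus strand: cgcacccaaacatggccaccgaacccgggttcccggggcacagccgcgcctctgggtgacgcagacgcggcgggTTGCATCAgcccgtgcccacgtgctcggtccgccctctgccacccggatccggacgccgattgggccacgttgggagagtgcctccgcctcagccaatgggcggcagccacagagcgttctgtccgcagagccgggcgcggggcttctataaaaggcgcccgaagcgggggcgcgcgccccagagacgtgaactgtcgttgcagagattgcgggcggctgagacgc
PSMC4, chr19:39970915-39971214, plus strand: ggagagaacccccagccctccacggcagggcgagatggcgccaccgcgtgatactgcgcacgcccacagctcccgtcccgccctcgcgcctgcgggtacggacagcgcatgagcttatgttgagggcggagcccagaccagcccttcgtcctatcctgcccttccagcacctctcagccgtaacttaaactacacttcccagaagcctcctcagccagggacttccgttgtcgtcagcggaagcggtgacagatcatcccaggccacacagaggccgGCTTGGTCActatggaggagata
HES1, chr3:194135898-194136197, plus strand: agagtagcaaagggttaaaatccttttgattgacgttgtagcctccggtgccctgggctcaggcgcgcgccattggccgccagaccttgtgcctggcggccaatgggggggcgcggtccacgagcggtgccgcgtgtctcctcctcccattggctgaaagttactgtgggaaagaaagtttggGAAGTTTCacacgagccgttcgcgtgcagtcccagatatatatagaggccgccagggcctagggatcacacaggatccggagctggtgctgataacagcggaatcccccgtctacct

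Both strands were searched. The printed promoters were picked and each holds a match. Those of DNAJB1, HSPH1, BAG3, HSP90AA1 and HSPD1, which also rose, held no heat shock core in this window. The match in HSPA1B lay at -105 to -98 from the start site. HSPA8 held 4 matches in 2 overlapping pairs, from -230 to -218 and from -55 to -43. The matches in CHAC1 (-209 to -202) and HERPUD1 (-176 to -169) read TTGCATCA, the reverse complement of the composite element, and that in PSMC4 (28 to 36) lay after the start site. Of the 6330 tested symbols, 5188 matched a promoter, and 10.1% of these held either heat shock core, 16.3% the antioxidant core and 1.46% the composite element, against 13.7%, 13.6% and 3.67% of all 27305 promoters in the table. Among the genes that rose, 141 of 186 matched a promoter, with 22 (15.6%), 41 (29.1%) and 4 (2.84%) holding these motifs. Among the genes that fell, 92 of 126 matched, with shares of 8.70%, 10.9% and 0%. Of the chaperone list below, 11 of 35 matched promoters (31.4%) held a heat shock core, and 9 of 33 in the ATF4 list (27.3%) held the composite element. The antioxidant core was found in 5 of 17 promoters of 19S subunits (29.4%), in 1 of 10 of 20S subunits and in 6 of 24 of the NRF2 list (25.0%). It was as frequent in the ATF4 list (10 of 33, 30.3%) and the chaperone list (9 of 35, 25.7%), and so was not particular to the NRF2 list. A match describes the letters of the window and is no evidence of a binding site.

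Many cytosolic chaperones rose, HSPA1B among them. Of 42 listed genes, 28 were tested in PLATE-Seq, and 13 rose while 0 fell, with a median log2 fold change of 0.60 against -0.00 over all genes tested. TruSeq tested all 42 and called 35 higher and 1 lower (BAG4), with a median of 0.58 against 0.00. A gene could pass the filter through the bortezomib wells alone, so these counts, and those of the lists below, are of tested genes. They can favour rises. DNAJB1, an HSP40 that delivers clients to HSP70, went from 11.6 to 68.9 CPM in DMSO wells (median 47.2) to 166 to 281 CPM (median 217), without overlap (log2 fold change 2.29 ± 0.16). BAG3, an HSP70 co-chaperone that routes clients to autophagy, had medians of 36.1 and 7.43 CPM with bortezomib and DMSO, and the wells overlapped (2.14 ± 0.34). HSPH1, a nucleotide exchange factor of HSP70, rose from a median of 153 to 445 CPM (1.48 ± 0.11). The constitutive HSPA8 rose from 543 to 767 CPM (median 664) to 1178 to 1522 CPM (median 1321), a log2 fold change of 0.97 ± 0.07, again without overlap. HSP90AA1 had medians of 1631 and 692 CPM (1.16 ± 0.12), and its ranges overlapped, as the lowest bortezomib well held 933 and the highest DMSO well 957 CPM. HSP90AB1, the constitutive HSP90, rose by 0.69 ± 0.08, and HSPD1, the mitochondrial HSP60, by 0.92 ± 0.08. Some members passed the filter in TruSeq only. HSPA6, an HSP70 with almost no basal expression, read 15.9 and 16.1 CPM in the bortezomib pools and 0.297 and 0.157 CPM in the DMSO pools, and DNAJB4 rose by 2.12 on the log2 scale. The 8 subunits of the TRiC chaperonin, which folds actin and tubulin, moved little: TCP1 alone rose in PLATE-Seq (0.50 ± 0.12), and all 8 were called higher in TruSeq with a median of 0.20.

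The genes of the drug's own target complex rose together. Of 14 subunits of the 20S core, 13 were tested in PLATE-Seq and 8 rose with 0 lower (median log2 fold change 0.44), and TruSeq called all 14 higher (median 0.50). Of 19 subunits of the 19S cap, which unfolds substrates and removes ubiquitin, 18 were tested, 11 rose and 0 fell (median 0.57), and TruSeq called all 19 higher (median 0.65). PSMC4, an ATPase of the cap, went from 158 to 361 CPM in DMSO wells (median 270) to 374 to 555 CPM (median 464), a log2 fold change of 0.77 ± 0.10 (edgeR adjusted p = 3.04e-08). PSMA5, an α subunit of the core, went from 208 to 452 CPM (median 329) to 493 to 762 CPM (median 562), a log2 fold change of 0.74 ± 0.10. These 2 were the subunits whose wells did not overlap. ADRM1, a ubiquitin receptor of the cap, rose by 0.77 ± 0.12 and PSMC2 by 0.84 ± 0.16. No subunit reached a log2 fold change of 1 in either assay.

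PSMB5, the subunit that bortezomib binds (chr14:23485752-23504439), held 49.3 to 123 CPM in bortezomib wells (median 72.7) and 47.0 to 98.9 CPM in DMSO wells (median 62.7). The wells overlapped, and the log2 fold change of 0.17 ± 0.16 was not called in PLATE-Seq (edgeR adjusted p = 0.694). In TruSeq it read 179 and 180 CPM against 117 and 125 CPM, a log2 fold change of 0.57 ± 0.05 (edgeR adjusted p = 1.25e-11). Of the other catalytic subunits, PSMB6 was not called in PLATE-Seq (0.31 on the log2 scale) and rose in TruSeq (0.42), and PSMB7 rose in both (0.52 and 0.60). Genes that accompany the proteasome without being its constitutive subunits gave few calls. Of 17 activators, assembly factors and immunosubunits, 15 were tested in PLATE-Seq and 1 rose, the maturation factor POMP (0.46 ± 0.10). TruSeq called POMP and the activator PSME4 higher among all 17, with a median of -0.02. PSMB8, PSMB9 and PSMB10, the inducible subunits of the immunoproteasome, belong to this list and were not called in either assay.

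**Figure D2:**
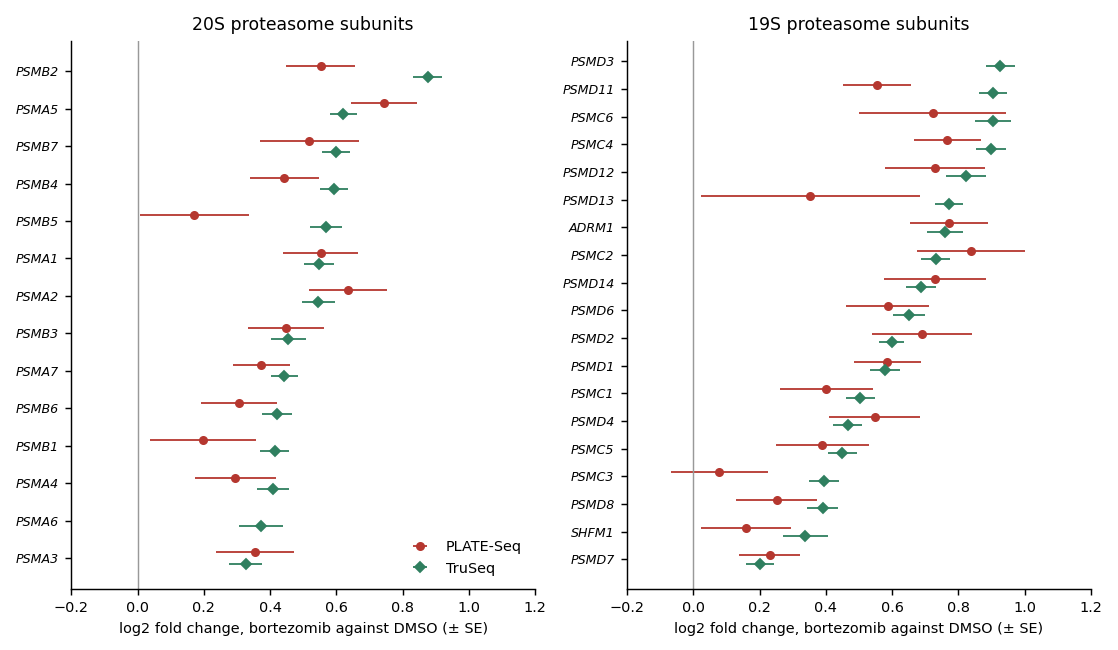
Log2 fold change of bortezomib over DMSO (points, with bars of ± SE) for the subunits of the 20S core and the 19S cap in PLATE-Seq wells and TruSeq pools. Every tested subunit lies above 0 in both assays, from 0.08 to 0.84 in PLATE-Seq and from 0.20 to 0.93 in TruSeq.

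UBB, a polyubiquitin gene, stood at 785 to 1717 CPM in DMSO wells (median 937) and at 1068 to 2618 CPM with bortezomib (median 1573), a log2 fold change of 0.69 ± 0.14 (edgeR adjusted p = 0.00135). The wells overlapped. The TruSeq pools read 1255 and 1263 CPM against 768 and 794 CPM. Of 34 genes that handle ubiquitin and extract its clients, 29 were tested, 8 rose and 0 fell, with a median of 0.14, and TruSeq called 23 higher and 1 lower of 34, with a median of 0.20. ZFAND2A, an arsenite-inducible partner of the proteasome, led them with medians of 35.5 and 5.17 CPM (2.66 ± 0.35), although its wells overlapped. The AAA ATPase VCP rose by 0.50 ± 0.14, its cofactors UFD1L and NSFL1C by 0.55 ± 0.15 and 0.56 ± 0.15, the proteasomal deubiquitinase USP14 by 0.68 ± 0.14, and the shuttle UBQLN1 by 0.79 ± 0.19. Of 23 autophagy receptors and LC3 genes, 16 were tested and 1 rose, SQSTM1, the p62 receptor of ubiquitylated cargo, with medians of 160 and 96.0 CPM (0.70 ± 0.13). TruSeq called 9 of 22 higher and 1 lower, with SQSTM1 at 1.11 and GABARAPL1 at 1.19 on the log2 scale.

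Targets of ATF4 rose across several branches. Of 46 listed genes, 35 were tested in PLATE-Seq, 12 rose and 0 fell (median 0.47). TruSeq tested all 46 and called 40 higher and 1 lower, VLDLR (median 0.58). Genes low in DMSO wells, such as CHAC1 and DDIT4, could pass the PLATE-Seq filter through the bortezomib wells alone. The PLATE-Seq count and median therefore lean towards rises, and DDIT4 was taken as a marker with its response known. CHAC1, which degrades glutathione, had 25.4 to 157 CPM in bortezomib wells (median 99.8) and 0 to 28.5 CPM in DMSO wells (median 6.92), a log2 fold change of 3.09 ± 0.39 (edgeR adjusted p = 5.09e-06). The groups overlapped only between 25.4 and 28.5 CPM. SESN2, a stress-induced regulator of mTORC1, rose by 2.68 ± 0.39, the peptide hormone gene ADM2 by 2.27 ± 0.30, and SLC7A11, the cystine importer, by 1.51 ± 0.18. PPP1R15A (GADD34), which directs phosphatase to eIF2α, rose by 1.41 ± 0.21. ATF4 mRNA rose less, from a median of 118 to 227 CPM (0.85 ± 0.12). Some effectors were below the filter in PLATE-Seq but were read in TruSeq: ATF3 at 51.7 and 55.9 against 8.89 and 9.20 CPM, DDIT3 (CHOP) with a log2 fold change of 1.89, and asparagine synthetase ASNS with 1.34. Amino acid metabolism moved by smaller steps, with PSPH at 0.89, GARS at 0.76, MTHFD2 at 0.72, MARS at 0.70 and TARS at 0.49 in PLATE-Seq, all called.

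The chaperones of the endoplasmic reticulum were a smaller part of the response. Of 35 listed genes, 27 were tested in PLATE-Seq and 5 rose with 0 lower (median 0.39), and TruSeq called 26 of 33 higher and 1 lower (median 0.32). HSPA5, the BiP chaperone, went from 61.8 to 115 CPM (median 85.9) to 137 to 261 CPM (median 234), without overlap (1.28 ± 0.13). HERPUD1, a component of ER-associated degradation, had medians of 67.8 and 13.3 CPM with overlapping wells (1.86 ± 0.25). The lectin chaperone CALR rose by 0.61 ± 0.10 and HSP90B1 by 0.39 ± 0.09, both without overlap between wells. XBP1 was not called in PLATE-Seq (0.70 ± 0.23, edgeR adjusted p = 0.0693) and rose in TruSeq from 71.2 and 73.0 to 145 and 163 CPM.

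Antioxidant genes driven by NRF2 changed unevenly. Of 32 listed genes, 29 were tested, 9 rose and 0 fell (median 0.22), and TruSeq called 19 higher and 3 lower (median 0.21). HMOX1, which breaks down heme, stood at 20.1 to 70.2 CPM in DMSO wells (median 39.3) and at 127 to 219 CPM with bortezomib (median 169), a log2 fold change of 1.97 ± 0.15. OSGIN1 rose by 1.62 ± 0.20 and the sulfiredoxin SRXN1 by 1.39 ± 0.17. The wells of these 3 genes did not overlap. GCLM, the modifier subunit of glutathione synthesis, rose by 0.58 ± 0.12, and the ferritin light chain FTL by 0.40 ± 0.10. NQO1, a textbook NRF2 target, was -0.01 in PLATE-Seq and 0.05 in TruSeq and was not called in either. Metallothioneins, which bind zinc and copper, did not share the rise: of 13 listed genes 5 were tested, and MT1E fell from a median of 412 to 180 CPM (-1.10 ± 0.18) with overlapping wells.

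Immediate early genes rose with the stress genes. Of 38 listed, 20 were tested, 8 rose and 1 fell (median 0.61), and TruSeq called 28 of 37 higher and 5 lower (median 0.62). JUN, a subunit of AP-1, was read at 0.957 to 40.1 CPM in DMSO wells (median 16.3) and at 94.5 to 199 CPM with bortezomib (median 144), a log2 fold change of 3.03 ± 0.24. FOSL1, its partner, went from a median of 59.6 to 212 CPM (1.81 ± 0.15). Both were without overlap. The phosphatase gene DUSP1 rose by 2.44 ± 0.44 and GADD45A by 1.63 ± 0.30. Of the paralogous mRNA decay factors, ZFP36L1 rose by 1.06 ± 0.09 while ZFP36L2 fell by 0.77 on the log2 scale (SE 0.16). The cell cycle inhibitor CDKN1A (p21) had medians of 38.0 and 6.84 CPM (2.23 ± 0.33). It was 1 of 2 genes that rose among 4 tested of 24 listed p53 targets, with SESN2, which is also in the ATF4 list. Both were low without bortezomib and could pass the filter through the bortezomib wells alone, so this count is not read as a share. TruSeq called 9 higher and 4 lower of 22 p53 targets (median 0.10), against 21.3% and 19.6% of all genes tested. Of 20 BCL2 family genes 8 were tested, and MCL1 rose by 1.07 ± 0.28 in PLATE-Seq and by 0.21 ± 0.04 in TruSeq. The pro-apoptotic PMAIP1 (NOXA) was read in TruSeq at 18.7 and 21.8 CPM against 8.77 and 8.22 CPM. The long non-coding RNA NEAT1, the scaffold of paraspeckles, rose from 367 to 620 CPM (median 465) to 914 to 1865 CPM (median 1287), without overlap. The uncharacterised transcript AK123998 and AP4B1, a subunit of an adaptor complex of the trans-Golgi, were also among the largest rises, at 2.57 ± 0.31 and 1.46 ± 0.22.

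The genes with the largest falls included regulators of transcription and receptors. Only 8 of the 6330 tested genes (0.126%) were lower in all bortezomib wells than in any DMSO well, against 27 (0.427%) that were higher in all. HSPA1B, NEAT1, DNAJB1 and HSPH1 were among the 27. The 8 were HES1, EFNA1, BCL3, ELF3, MARCKS, NR2F2, NRP1 and GATA3. BCL3, an atypical IκB that works with NF-κB in the nucleus, stood at 143 to 315 CPM in DMSO wells (median 205) and at 38.1 to 110 CPM with bortezomib (median 70.9), a log2 fold change of -1.49 ± 0.14 (edgeR adjusted p = 1.05e-12). ELF3, an epithelial ETS factor, went from 115 to 220 CPM (median 170) to 36.9 to 105 CPM (median 62.6), a log2 fold change of -1.44 ± 0.14. The pools read 120 and 123 CPM for ELF3 with bortezomib and 390 and 402 CPM with DMSO. NR2F2, an orphan nuclear receptor, fell by 1.01 on the log2 scale (SE 0.14), and NRP1, a co-receptor for VEGF and semaphorins, by 1.06 (SE 0.15). TFAP2A, which encodes AP-2α, had medians of 109 and 261 CPM (-1.15 ± 0.12) and the retinoic acid receptor gene RARA medians of 25.4 and 74.6 CPM (-1.49 ± 0.24), both with overlapping wells. DHRS3, a retinaldehyde reductase, and GPRC5A, a receptor gene induced by retinoic acid, had log2 fold changes of -1.05 ± 0.19 and -1.05 ± 0.21. H2AFX, the histone variant of DNA damage foci, had -1.08 ± 0.16, and AMOTL2, an angiomotin of the Hippo pathway, -1.01 ± 0.17. TMEM139, a membrane protein, had -1.30 ± 0.21.

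Further falling genes had DMSO levels under 50 CPM and are named here after their values were seen. FBXO32, a ubiquitin ligase subunit known from muscle atrophy, had medians of 5.83 and 34.9 CPM with bortezomib and DMSO (log2 fold change -2.13 ± 0.32) and pools at 17.2 and 18.0 against 90.8 and 87.5 CPM. GATA3, a transcription factor of the mammary epithelium, had 3.72 to 16.3 CPM against 22.1 to 59.3 CPM, without overlap (-1.93 ± 0.28). IRF2BPL had -1.81 ± 0.45, SHROOM3, which shapes the apical cytoskeleton, -1.63 ± 0.34, and the homeobox gene IRX3 -1.42 ± 0.26. MARCKS, a substrate of protein kinase C at a higher level, went from 143 to 302 CPM to 65.9 to 131 CPM. In TruSeq the grainyhead factor GRHL2 fell from 140 and 129 to 48.4 and 43.4 CPM and was below the filter in PLATE-Seq.

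In TruSeq, the lists that hold HES1, EFNA1 and BCL3 gave calls in both directions. Of 24 Notch genes, 6 were tested in PLATE-Seq and HES1 alone was called. TruSeq tested 22 and called 4 higher and 8 lower (median -0.07), among them the E3 ligase DTX4 (-1.19) and NOTCH2 (-0.49), with NOTCH1 higher (0.67). Of 19 ephrins and Eph receptors, 6 were tested in PLATE-Seq and EFNA1 alone was called, and TruSeq called 7 higher and 4 lower of 16. All 6 lay below 0 on the log2 scale in PLATE-Seq (median -0.56), while the TruSeq median was 0.12. Of 36 NF-κB inhibitors and targets, 13 were tested, 1 rose (IER3, 0.74 ± 0.18) and 2 fell, BCL3 and NFKBIA, which encodes the inhibitor IκBα, itself degraded by the proteasome (medians of 45.6 and 91.5 CPM, -0.98 ± 0.17). TruSeq called 10 higher and 10 lower of 27, from IL1A (2.68) and IL8 (1.65) to BIRC3 (-1.65) and TNF (-2.26). Among 24 ERK feedback and ETS targets, 3 of 14 tested rose and 2 fell, with the phosphatase DUSP4 at -0.64 ± 0.18, the receptor EGFR at -0.49 ± 0.10, and ERRFI1, an inhibitor of EGFR, at 0.85 ± 0.26. The median changes of these lists were between -0.56 and 0.14 in PLATE-Seq, on both sides of the median of all genes.

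Mitotic genes were lower. Of 33 listed G2/M genes, 32 were tested in PLATE-Seq and 10 fell with 0 higher (median -0.44), and TruSeq called 32 of 33 lower (median -0.46), with CDK1 as the exception. AURKA, the kinase of the spindle poles, went from 179 to 395 CPM in DMSO wells (median 261) to 96.0 to 210 CPM (median 158), a log2 fold change of -0.74 ± 0.12 (edgeR adjusted p = 3.40e-06). CDC20, an activator of the anaphase-promoting complex, had -0.88 ± 0.18, the spindle factors PSRC1 and TPX2 -0.92 ± 0.16 and -0.77 ± 0.15, and cyclin A2 (CCNA2) -0.58 ± 0.12. The ranges of these genes overlapped between the groups. Of 30 listed genes of G1/S and replication, 22 were tested in PLATE-Seq and 1 rose, E2F3 (0.86 ± 0.20), with a median of 0.03, while TruSeq called 15 higher and 6 lower of 29 (median 0.12).

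Other gene groups gave few calls in PLATE-Seq. All 69 cytosolic ribosomal proteins were tested, 3 rose and 0 fell, and their log2 fold changes lay between -0.12 and 0.31 (median 0.05). TruSeq called 29 of the 69 higher and 0 lower, with a median of 0.07. None of the 16 tested genes of glycolysis and hypoxia, the 17 tested splicing factors and the 11 tested genes of cholesterol synthesis was called in PLATE-Seq by edgeR, while TruSeq called 10 higher and 4 lower of 27, 7 higher and 1 lower of 18, and 6 higher and 3 lower of 25 in these lists. Of 29 actin, matrix and YAP genes 19 were tested, ACTG1 rose (0.54 ± 0.09), and THBS1 and AMOTL2 fell, while TruSeq called 8 higher and 9 lower of 27. The keratin list gave 1 call among 7 tested, KRT16, an injury keratin (1.64 ± 0.45), and TruSeq called 4 higher and 2 lower of 17. Of 22 TGF-β, BMP and ID genes 9 were tested and SMAD3 fell (-0.66 ± 0.16), and TruSeq called 4 higher and 7 lower of 21. Of 18 histone genes 7 were tested and H2AFX fell (median -0.22), and TruSeq called 1 higher and 6 lower of 15 (median -0.31).

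**Figure D3:**
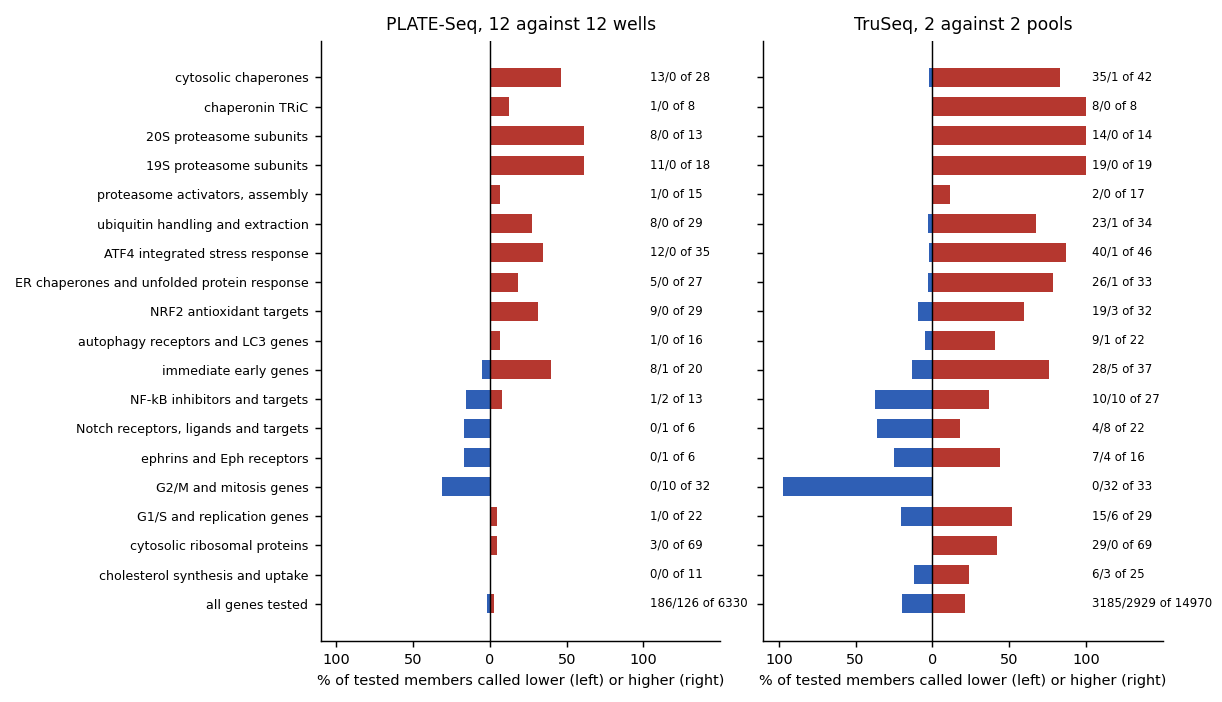
Percentage of the tested members of 18 gene lists, and of all genes tested, called higher or lower with bortezomib in PLATE-Seq and TruSeq, with the counts beside the bars. Of the tested members, 13 of 28 chaperones, 11 of 18 19S subunits, 8 of 20 immediate early genes and 12 of 35 ATF4 targets rose in PLATE-Seq. All 8 TRiC subunits rose in TruSeq. The share of all genes called higher was 2.94% in PLATE-Seq and 21.3% in TruSeq. The called members of the G2/M list were all lower, and others of that list were not called.

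The 2 assays were set side by side on the 312 called genes, with the reminder that wells and pools are portions of the same cultures. Of the 186 genes that rose in PLATE-Seq, 185 had the same sign in TruSeq and 177 were called higher, which is 95.2% of these 186 and 5.56% of the 3185 TruSeq calls. Of the 126 that fell, 120 had the same sign and 108 were called lower (85.7% of the 126 and 3.69% of the 2929). A single gene was called in opposite directions, the splicing GTPase EFTUD2, at -0.83 in PLATE-Seq and 0.14 in TruSeq. Across the 312 genes the log2 fold changes had a Pearson r of 0.949, and across all 6319 genes tested in both 0.697. These are descriptions across genes, which are not independent replicates, and the 312 were selected on the values of an axis. The sizes were close for most named genes, such as HSPA8 (0.97 and 0.99), while MCL1 (1.07 and 0.21) and H2AFX (-1.08 and -0.57) were smaller in TruSeq. Many of the TruSeq changes were in genes below the PLATE-Seq filter. Of 324 genes that rose by at least 1 on the log2 scale in TruSeq, 67 passed the PLATE-Seq filter and 51 of those were called, and of 238 that fell as far, 34 passed and 20 were called. Genes under 50 CPM made up 4054 of the 6330 tested and gave 53 of the rises and 36 of the falls, while the 504 genes of at least 200 CPM gave 46 and 24.

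**Figure D4:**
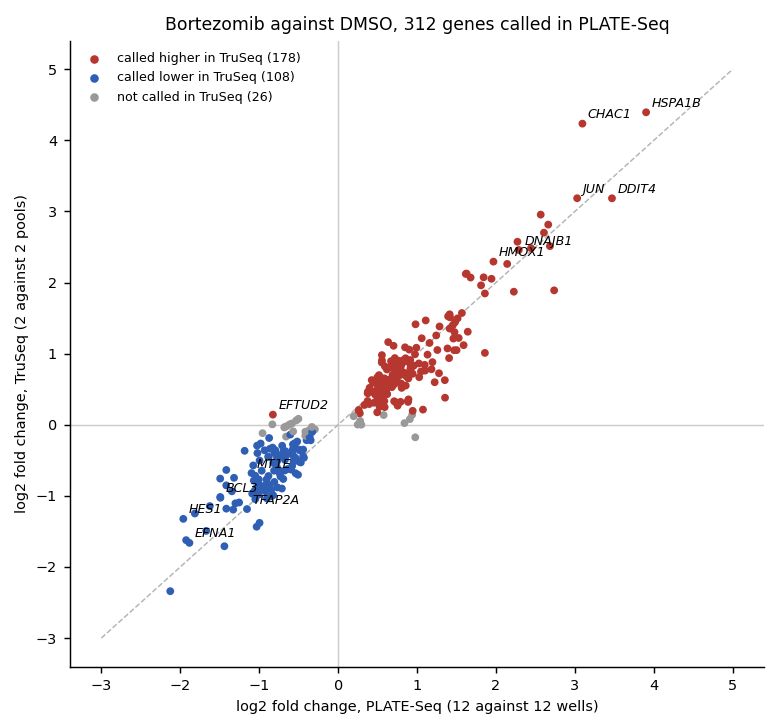
Log2 fold change of bortezomib over DMSO in PLATE-Seq (horizontal axis) and TruSeq (vertical axis) for the 312 genes called in PLATE-Seq, coloured by whether TruSeq called them higher or lower, with the dashed line marking equal values. Points follow the line from FBXO32 at -2.13 to HSPA1B at 3.90, and EFTUD2 is marked as the gene called in opposite directions.

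The other drugs of the plate served to ask which of these changes were also seen with other compounds. Against the mean of the 72 wells of the 6 other drugs, 8600 genes were tested and 589 (6.85%) were called, 355 (4.13%) higher and 234 (2.72%) lower. This comparison uses the same bortezomib wells as the one against DMSO, so the values are given side by side and not counted as agreement. HSPA1B averaged 693 CPM in bortezomib wells and 37.6 to 49.8 CPM in the 6 other conditions (log2 fold change 4.05 ± 0.09). DNAJB1 averaged 221 against 35.7 to 42.2 CPM and HSP90AA1 1604 against 588 to 713 CPM. For each of these genes the mean of every other drug was far under that of bortezomib. Of the 20S and 19S subunits, 11 of 13 and 14 of 19 tested were higher than with the other drugs, as were 16 of 31 chaperones, 24 of 41 ATF4 targets and 11 of 30 NRF2 genes, with 0 lower in all 5 lists. PSMB5 averaged 74.0 against 48.9 to 62.7 CPM and was not called (0.45, edgeR adjusted p = 0.0508).

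Among the falling genes, BCL3 averaged 74.0 CPM with bortezomib and 181 to 218 CPM with the other drugs, TFAP2A 121 against 267 to 319 CPM, ELF3 63.3 against 131 to 223 CPM, and the syndecan SDC4 174 against 306 to 401 CPM. EFNA1 averaged 27.0 ± 8.28 CPM (SD, n = 12), and the nearest other drug was crizotinib with 67.8 ± 19.0. HES1 averaged 38.0 ± 11.3 CPM with bortezomib and 147 ± 33.4 with DMSO. The means of the 6 other drugs all lay between these values. They ran from 74.8 ± 21.0 with idarubicin, the lowest, to 126 ± 38.2 with crizotinib, the highest, with mitoxantrone at 99.5 ± 28.6. The order for RARA was different: bortezomib at 26.8 ± 13.1 CPM was followed by crizotinib at 35.6 ± 16.9 and idarubicin at 41.1 ± 23.8, within the spread of the wells. NEAT1 was highest with bortezomib at 1316 ± 251 CPM, and crizotinib was next at 1013 ± 139, against 469 ± 88.1 with DMSO.

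For the mitotic genes AURKA and UBE2C, the mean with bortezomib lay between that of the vehicle and those of the topoisomerase II drugs. AURKA averaged 159 ± 32.5 CPM with bortezomib, 93.7 ± 31.2 with mitoxantrone, 71.0 ± 16.3 with idarubicin and 250 to 261 with the other 4 drugs, against 263 ± 55.0 with DMSO. UBE2C, the E2 enzyme of the anaphase-promoting complex, averaged 566 ± 80.5 CPM with bortezomib, 417 ± 69.9 with mitoxantrone and 301 ± 47.1 with idarubicin, against 786 ± 110 with DMSO. Against the mean of the 6 other drugs, 4 of 33 G2/M genes were lower (median -0.06), where 10 of 32 were lower against DMSO.

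**Figure D5:**
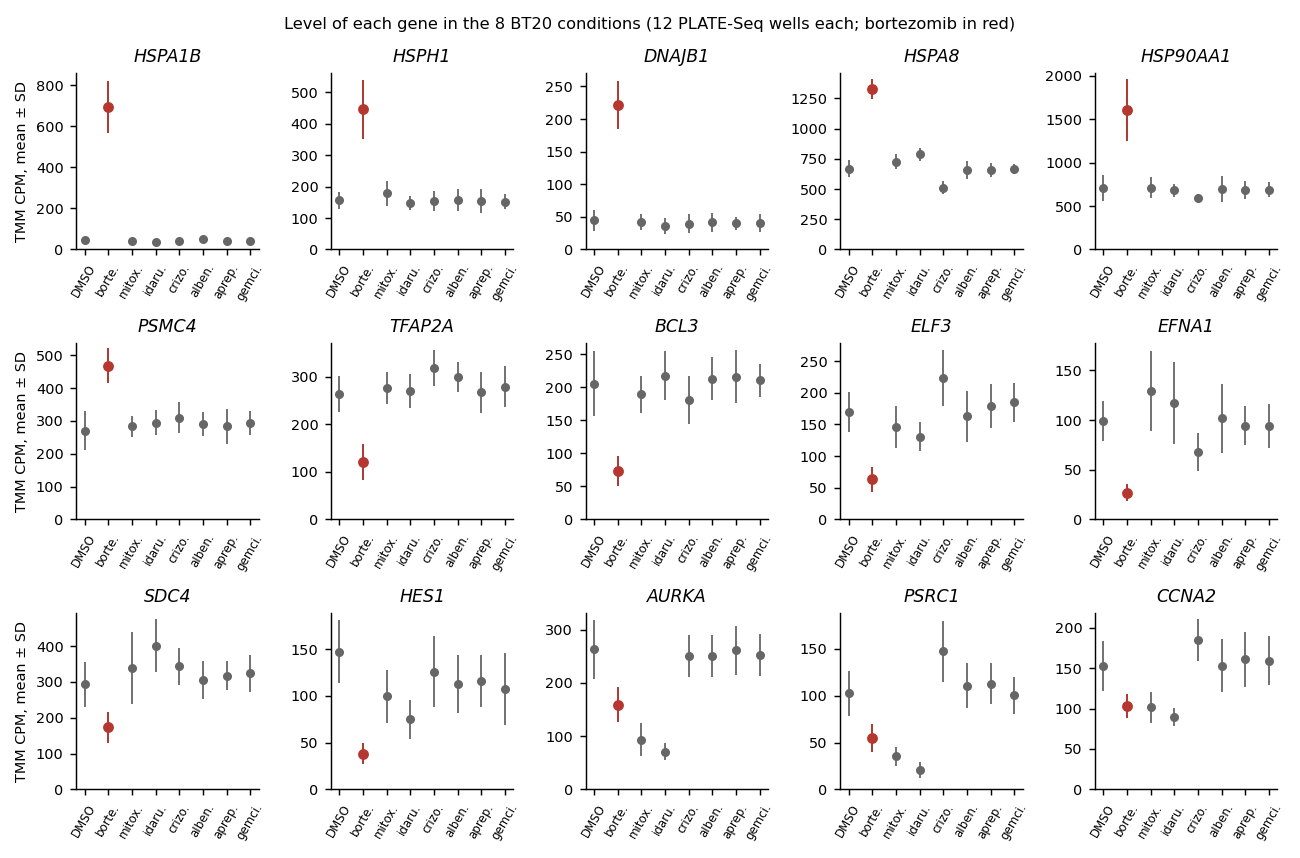
Mean CPM with SD (n = 12 wells) of 15 genes in the 8 conditions of the BT20 plate: DMSO, bortezomib (borte.), mitoxantrone (mitox.), idarubicin (idaru.), crizotinib (crizo.), albendazole (alben.), aprepitant (aprep.) and gemcitabine (gemci.). HSPA1B, HSPH1 and DNAJB1 are higher with bortezomib than in any other condition, and AURKA, PSRC1 and CCNA2 are lowest with mitoxantrone or idarubicin.

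Bortezomib was also given to U87 cells, at 0.01 µM for 24 h and with 2 wells, 1 on each of 2 plates, against 4 DMSO wells. Line, dose and time differed, so the values are set beside those of BT20 without a test of the difference. With the plate as a term, 7056 genes were tested and 1311 (18.6%) were called, 631 (8.94%) higher and 680 (9.64%) lower. Without bortezomib replicate 1 there were 705 calls and without replicate 2 there were 551. HSPA1B read 637 CPM against 108 and 126 CPM on the first plate and 69.9 against 10.8 and 15.1 CPM on the second (log2 fold change 2.43 ± 0.24). Proteasome genes rose in U87 too, 11 of 14 subunits of the core (median 1.05) and 11 of 17 of the cap (median 0.80), with PSMB5 at 1.37 and PSMC4 at 2.01. NRF2 genes gave 21 higher and 1 lower of 27 (median 0.95), and the G2/M list 23 lower of 31 (median -1.71). ATF4 targets in U87 gave 10 higher and 5 lower of 38 (median 0.44). In BT20 wells they gave 12 higher and 0 lower of 35, with a close median of 0.47. ER genes gave 3 higher and 1 lower of 27 in U87 (median -0.07), and 5 higher and 0 lower of 27 in BT20 wells (median 0.39). Cytosolic chaperones in U87 gave 13 higher and 1 lower of 28 (median 0.51). HSPH1, HSPA8 and JUN were not called in U87, and HES1 and EFNA1 were not tested there. Of the 186 genes that rose in BT20, 162 were tested in U87, and 74 were called higher and 7 lower (45.7% of those tested, and 11.7% of the U87 rises). Of the 126 that fell, 86 were tested, and 25 were called lower and 10 higher (29.1% of those tested, and 3.68% of the U87 falls). DDIT4 was among the genes that went the other way, with 96.6 CPM against 248 and 384 CPM on the first plate and 175 against 503 and 457 CPM on the second.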

How the data were processed

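BT20 cells were analysed as single wells (PLATE-Seq) and as pooled RNA (TruSeq), and U87 cells by PLATE-Seq with the lysates of 2 culture wells joined in each capture well. The authors assigned reads to wells by barcode (edit distance of at most 1), aligned them with bwa-mem to hg19 with UCSC known genes and deposited raw counts of uniquely mapped reads per gene symbol, without normalization. For TruSeq, the counting is not given in detail in the sources used here. Spike-ins were left out.

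Counts were tested in edgeR 4.0.16 (R 4.3.3) with filterByExpr, TMM normalization and quasi-likelihood tests, Benjamini-Hochberg adjustment and calls at an adjusted p under 0.05. The 12 bortezomib and 12 DMSO wells were fitted alone, all 16 TruSeq pools together, the 84 drug wells together for the comparison with other drugs, and U87 with plate as a term. Scripts were tested on simulated data. Permutation tests (100000 resamples) and plots used Python 3.11.15. Alternatives were DESeq2 1.42.0, RLE, no filter, all 96 wells, a block of runs of 8 wells, and libraries or abundant symbols left out.

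Well numbers place 1 bortezomib and 1 DMSO well in each of 12 runs, but their deviations from the group means did not correlate (mean r = -0.00126, 0 of 12 pairs over 0.1), so runs were not taken as pairs. The genes named were HSPA1B, DDIT4, HES1, EFNA1 and PSMB5, the 15 largest rises and 15 largest falls of at least 50 CPM with all bortezomib wells on 1 side of the DMSO median (14 of each are reported), up to 6 (PLATE-Seq) and 4 (TruSeq) members a list by smallest p, and 5 each way against other drugs; other members of the 33 lists are given as examples. Members and lists were chosen with earlier results of these data known. Gene positions are those of GENCODE lifted to GRCh37, and promoters those of RefSeq on GRCh38.p14. LNCaP tables were not used, and some genes that the rule names are not reported here.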

Additional observations from a re-analysis of the deposited data

Results flagged for a closer look

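In the 4 U87 DMSO wells, 1 well stood far from the others for HMOX1 (202 CPM) and for NEAT1 (74.2 CPM). Such a gap is seen by chance in about 1 of 20 groups, and 21 genes were checked. These wells are the vehicle of the U87 comparison only.

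Some genes moved in opposite directions in BT20 and U87 cells under bortezomib, and the difference was not tested, since line, dose and time all differed. DDIT4 rose in BT20 and fell in U87 (log2 fold change -1.57). BCL3 and MT1E fell in BT20 and rose in U87 (0.62 and 0.52). RARA and GPRC5A fell in BT20, and their values in U87 were 0.39 and 0.87, not called.

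Other proteasome inhibitors given to U87 cells were not used in any comparison above. Of 13 genes named as markers or largest rises and tested in U87, 4 (CHAC1, FOSL1, SLC7A11 and HSPH1) were above both DMSO wells of their plate in both wells of ixazomib (0.036 µM), and 3 (HSPA1B, DNAJB1 and FOSL1) in both wells of carfilzomib (0.0038 µM). The share of all genes tested in U87 that met the same rule was not computed, so these counts have no background to be read against. Whether they reflect a response to either inhibitor was not tested. Bortezomib was given at 0.01 µM, so doses differed and no order of the drugs is read.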

How the results depend on the processing

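Wells of 1 plate and pools of the same wells limit the p-values to the spread within 1 experiment, and at PLATE-Seq depth 6330 of 28430 symbols could be tested. Of the 97 named genes called in PLATE-Seq, 0 reversed under any alternative, and at most 3 lost their call under another fit or scaling. Of the 165 called in TruSeq, 0 reversed and at most 2 lost it. Named genes were picked largely by large changes or small p in the main fits, so these counts say little about the other calls. The 312 PLATE-Seq calls became 309 with RLE, 384 with DESeq2, 334 with all 96 wells in 1 fit, 310 without the 6 most abundant symbols and 320 without the DMSO well of low depth. Of the 312 genes themselves, 280 were still called with all 96 wells and 287 without the low DMSO well. With the replicate block of runs of 8 wells the 312 calls became 277, and those against the other drugs 590 in place of 589. Runs also differed in spike-ins, which the paper added to some wells only. The share of spike-in sequences was higher in odd than in even replicates of each BT20 PLATE-Seq condition. It was 7.54% and 0.0990% in bortezomib wells 1 and 2, and 5.92% and 0.174% in DMSO wells 1 and 2. Of the 312 calls, 265 were kept under the block, and why the others were lost was not tested. Without the filter there were 607 calls (350 higher, 257 lower) against DMSO and 1073 (776 higher, 297 lower) against the other drugs, which moved the share of higher calls from 60.3% to 72.3%.

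With a log2 fold change of at least 1 required, 94 PLATE-Seq and 562 TruSeq calls remained. By construction the lists shrank then, to 6 chaperones, 6 ATF4 targets, 4 NRF2 genes, 3 ER genes, 2 ubiquitin handling genes, and 1 each in the NF-kB, ERK, actin and epithelial lists. There were 0 in the lists of ubiquitin genes (UBB and RPS27A), TRiC, 20S, 19S, proteasome activators, autophagy, TGF-beta, G2/M, G1/S and ribosomal proteins. Without the filter there were 5 NF-kB, 2 Notch, 8 ERK and 2 TGF-beta calls, and 1 each for cholesterol, glycolysis, fibroblast and glial lists. DESeq2 gave 2 for proteasome activators, 2 for TGF-beta and 3 for G1/S, all 96 wells gave 2 for TGF-beta, 2 for G1/S and 0 for keratins, the replicate block gave 1 for cholesterol, and without the low DMSO well there were 3 for G1/S and 1 for glycolysis. The cause of these shifts was not tested.

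Signs reversed for genes near 0 that were not called. Without the low DMSO well, BCL2L13 was 0.0084 on the log2 scale. RPS3A in TruSeq was -0.0026 with the 4 bortezomib and DMSO pools alone and ranged from -0.0454 to 0.0529 when a pool was left out. The 6114 TruSeq calls ranged from 4524 to 5267 when 1 pool was left out, where the lone pool is assumed to vary like the others. For U87, the 1311 calls became 789 with DESeq2 and 199 with no plate term, 705 without bortezomib replicate 1 and 551 without replicate 2.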

Other observations

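Some levels outside the lists were also far apart between the groups and are given as values chosen after they were seen. FAM219A, a gene of little known function, held 22.3 to 55.3 CPM in bortezomib wells and 0 to 13.2 CPM in DMSO wells, and the TruSeq pools read 54.3 and 51.0 CPM against 7.51 and 8.69 CPM. E2F6, a repressor of the E2F family, held 19.0 to 55.3 CPM against 0 to 17.6 CPM. The homeobox gene MSX1 had medians of 26.5 and 2.01 CPM with overlapping wells, and TruSeq pools at 6.56 and 7.18 against 1.78 and 1.92 CPM.

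Among the markers of other cell types, CDH5, an endothelial cadherin, read 56.4 and 54.7 CPM in the bortezomib pools and 120 and 131 CPM in the DMSO pools. In PLATE-Seq it was not called (-0.83 ± 0.29 on the log2 scale, edgeR adjusted p = 0.0925 after Benjamini-Hochberg adjustment). CD3E and LYZ were at 0 in all BT20 libraries compared. OLIG2, a glial factor, read 6.22 and 6.03 CPM with bortezomib and 1.49 and 1.14 CPM with DMSO, and it did not pass the filter in PLATE-Seq. The part of these markers in the results was not tested.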
